A study of Mus musculus with 2 samples.

Results

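The Mir181 family of mouse comprises 6 microRNA (miRNA) genes that lie in 3 genomic pairs: Mir181a-1 with Mir181b-1 on chromosome 1, Mir181a-2 with Mir181b-2 on chromosome 2, and Mir181c with Mir181d on chromosome 8. The members were taken by their gene symbols in the GENCODE M21 annotation, and all 6 were found among the 1973 miRNA genes counted. The tissue was neural tube, the precursor of brain and spinal cord, from embryos of mouse strain B6NCrl at 12.5 days of development. Short RNAs were sequenced in 2 biological replicates of this 1 group, pools of male and female embryos, 120 in replicate 1 and 88 in replicate 2. Because no other tissue, age or treatment was included, the comparisons are those among the 6 genes and those between the libraries. In such pooled tissue, fewer cells of a type and less RNA per cell cannot be told apart.

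A miRNA gene is transcribed into a longer primary transcript, from which a hairpin is cut. Each hairpin yields a strand from its left side (5p) and one from its right side (3p), and a strand loaded into an Argonaute protein pairs with messenger RNAs mainly through its seed, bases 2 to 8. The miR-181 family is best known for tuning T-cell receptor signalling in the developing thymus. In the nervous system it is known from neurons, astrocytes and the retina, and in medaka fish miR-181a and miR-181b take part in the growth of retinal axons.

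The mature 5p strands are shown because the family is defined by them, and because they decide which genes a read can be assigned to. They are from RefSeq (GRCm38.p6), with the seed in capitals:
miR-181a-5p: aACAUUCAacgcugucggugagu
miR-181b-5p: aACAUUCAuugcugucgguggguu
miR-181c-5p: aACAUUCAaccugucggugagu
miR-181d-5p: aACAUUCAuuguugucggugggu
The 6 genes encode 4 distinct 5p strands with 1 seed, and 0 other miRNA genes of the RefSeq table carry it. Mir181a-1 and Mir181a-2 encode the same miR-181a-5p, and Mir181b-1 and Mir181b-2 the same miR-181b-5p. Counted from the 5′ end of miR-181a-5p, miR-181b-5p differed from it by A9U, C10U and A21G over 23 bases. The strand miR-181d-5p differed from miR-181b-5p by C12U alone over 23 bases, and miR-181c-5p lay at an edit distance of 1 from miR-181a-5p.

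The 3p strands, which are usually the less abundant products of these hairpins, are shown because they are distinct in all 6 genes (seed in capitals):
miR-181a-1-3p: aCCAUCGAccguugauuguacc
miR-181a-2-3p: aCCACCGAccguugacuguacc
miR-181c-3p: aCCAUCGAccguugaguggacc
miR-181b-1-3p: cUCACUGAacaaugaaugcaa
miR-181b-2-3p: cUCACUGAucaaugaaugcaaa
miR-181d-3p: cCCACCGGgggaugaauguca
By seed, miR-181a-1-3p grouped with miR-181c-3p and miR-181b-1-3p with miR-181b-2-3p, while miR-181a-2-3p and miR-181d-3p each had a seed of their own. Counted from the 5′ end of the strand named first, miR-181a-1-3p and miR-181a-2-3p differed by U5C and U16C, miR-181a-1-3p and miR-181c-3p by U16G and U19G, and miR-181b-1-3p and miR-181b-2-3p by A9U over 21 bases.

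These sequences bear on the counts, since the deposited tables keep reads that map to several places in a row of their own and outside every gene. Such reads came to 71.8% of the gene reads of replicate 1 and 61.0% of those of replicate 2. How many of them were miR-181a-5p or miR-181b-5p was not measured, so the values of the 4 genes on chromosomes 1 and 2 hold only reads that could be placed at 1 locus. The stretch from the start of the 5p strand into the loop shows where these loci begin to differ, with the first differing base in capitals:
Mir181a-1: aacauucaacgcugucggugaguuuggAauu
Mir181a-2: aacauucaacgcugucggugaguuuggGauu
Mir181b-1: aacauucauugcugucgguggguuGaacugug
Mir181b-2: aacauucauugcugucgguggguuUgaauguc
The hairpins of Mir181a-1 and Mir181a-2 share 28 bases around the strand, which run 4 bases past its end. Those of Mir181b-1 and Mir181b-2 share 26 bases, which end with the last base of miR-181b-5p. A read that ends within the shared stretch matches both loci, and one that reaches past it matches 1.

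Windows of 20 bases along each hairpin gave the same picture. In Mir181a-1, Mir181a-2, Mir181b-1 and Mir181b-2, 0 of the 4 or 5 windows that lie within the 5p strand were absent from every other annotated miRNA hairpin. In Mir181c 3 of 3 such windows were, and in Mir181d 4 of 4. All windows within the 3p strands were found in 1 hairpin in all 6 genes (2 or 3 windows each). Over whole hairpins, 84.2% of windows were distinct in Mir181a-2, 86.8% in Mir181a-1, 88.5% in Mir181b-1, 90.0% in Mir181b-2 and 100% in Mir181c and Mir181d. The search covered annotated miRNA hairpins only, not the rest of the genome.

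**Figure D1:**
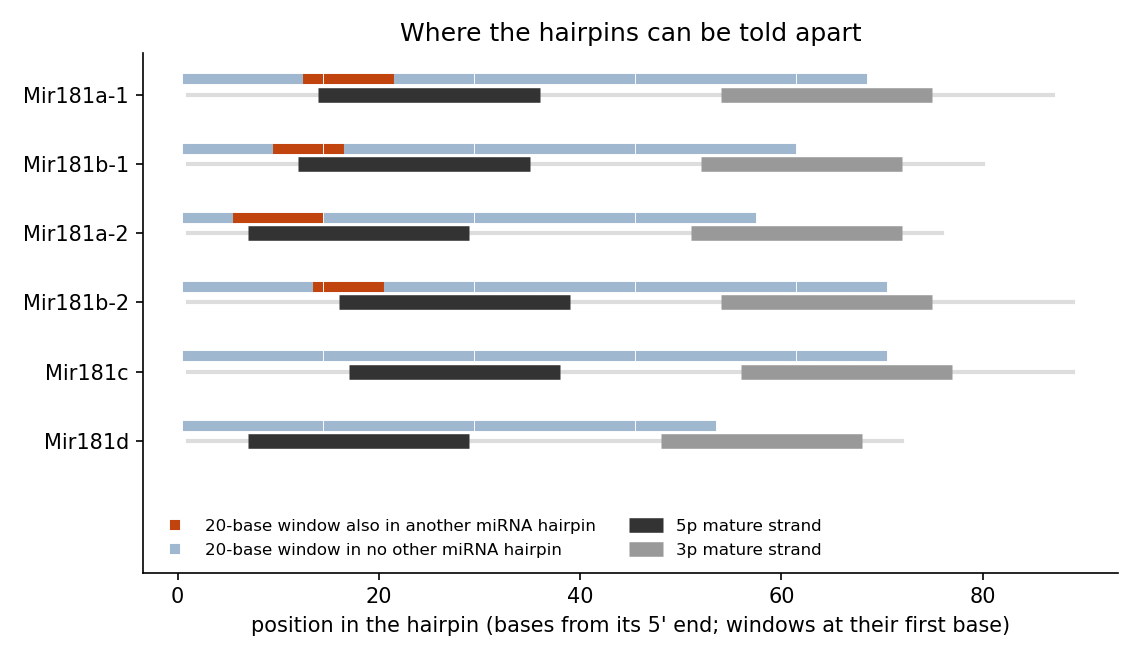
Each row is 1 hairpin, drawn from its 5′ end in bases, with the 5p strand in black and the 3p strand in grey. The coloured strip above it marks, at its first base, each 20-base window that is also present in another annotated miRNA hairpin (orange) or in none (blue). Orange windows lie at the 5p strand of the 4 genes on chromosomes 1 and 2, and Mir181c and Mir181d have none.

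All 6 members passed the detection minimum of 10 reads per library, against 18.8% of the 1973 genes. Levels are given in CPM, the reads that lie on a gene in its sense direction per 1000000 such reads of the library. These totals were 4802411 reads in replicate 1 and 4422853 in replicate 2. A CPM value counts short reads of strands of nearly equal length and is not divided by hairpin length, and values per base of hairpin are given where they change an order.

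The chromosome 8 pair had the highest levels. Mir181c, at chr8:84178873-84178961 on the minus strand in an intron of Nanos3, a gene for an RNA-binding protein of germ cells, had 30517 reads in replicate 1 and 32744 in replicate 2. These were 6355 and 7403 CPM, or 6879 ± 741.6 (SD, n = 2). Its identifier carries a later version in M21 than in the counts, so the interval counted may differ from these coordinates. Mir181d lies 85 bases downstream in the same intron (chr8:84178716-84178787, minus strand) and had 20343 reads in replicate 1 and 19498 in replicate 2. Its level of 4236 and 4408 CPM, or 4322 ± 122.0 (n = 2), was below that of Mir181c in both libraries.

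On chromosome 1 the pair was split. Mir181a-1 (chr1:137966455-137966541, plus strand) had 16919 reads in replicate 1 and 19475 in replicate 2. These were 3523 and 4403 CPM, or 3963 ± 622.4 (n = 2), the widest relative spread among the members with a coefficient of variation of 15.7%. Mir181b-1 begins 97 bases after the end of Mir181a-1 (chr1:137966639-137966718) and had 95 and 94 reads. It was the lowest of the 6 in both libraries, at 19.8 CPM in replicate 1 (95% exact binomial interval 16 to 24) and 21.3 in replicate 2 (17 to 26). Both genes lie in an intron of the noncoding gene Gm4258 on their strand, overlap an exon of the long noncoding gene A430106G13Rik on that strand, and lie in an intron of Gm26936 on the other.

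The chromosome 2 genes lay between these levels. Mir181a-2 (chr2:38852735-38852810, plus strand) had 5646 reads in replicate 1 and 4815 in replicate 2, or 1176 and 1089 CPM (1132 ± 61.5, n = 2). Mir181b-2, 1019 bases further along (chr2:38853830-38853918), had 6285 and 6837 reads, or 1309 and 1546 CPM (1427 ± 167.7, n = 2). Mir181b-2 was the higher of these genes in both libraries. Both lie within an intron of Nr6a1, an orphan nuclear receptor gene on the opposite strand, and Mir181b-2 also overlaps an exon of Gm44144 on that strand. The tables hold 0 reads on the opposite strand for all 6 members in both libraries.

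**Figure D2:**
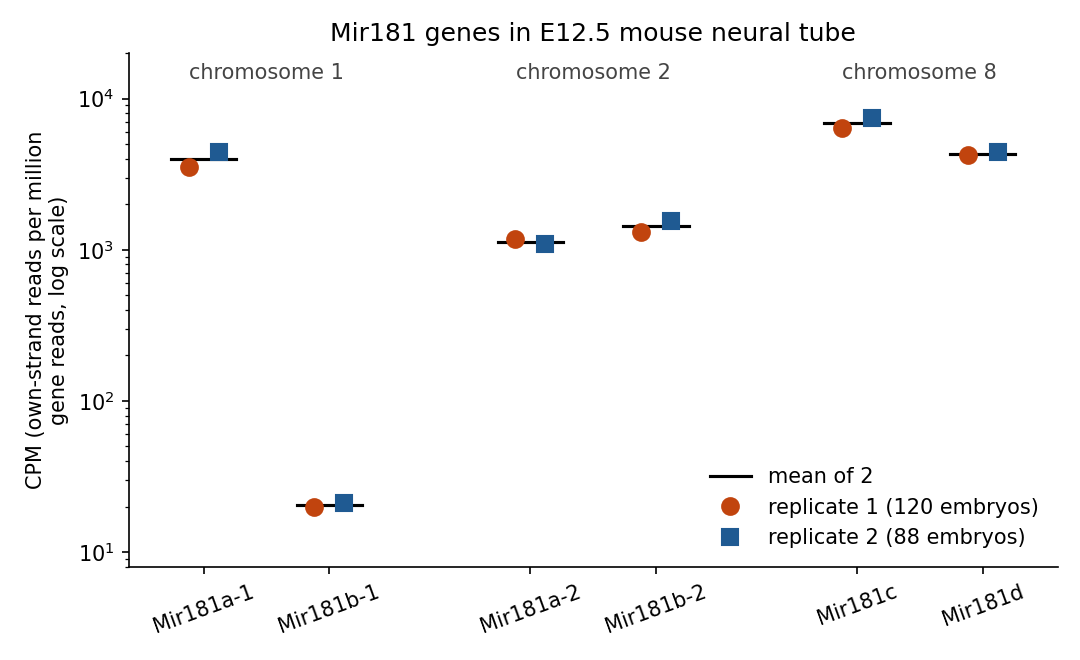
CPM of each member on a log axis in replicate 1 (orange circles) and replicate 2 (blue squares), with the mean of the 2 libraries as a black line. Mir181c is highest at 6355 and 7403 CPM, and Mir181b-1 lies at 19.8 and 21.3 CPM, far below the other 5.

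Ordered by mean level of uniquely placed reads, Mir181c was followed by Mir181d, Mir181a-1, Mir181b-2, Mir181a-2 and Mir181b-1. Reads that match both Mir181a-1 and Mir181a-2, or both Mir181b-1 and Mir181b-2, are left out, and their effect on this order was not tested. Mir181c was 1.59 ± 0.127 times Mir181d (n = 2), and Mir181a-1 was 2.77 ± 0.111 times Mir181b-2, both beyond the spread between libraries. Mir181d and Mir181a-1 did not differ beyond it, with a ratio of 1.2 in replicate 1 and 1.0 in replicate 2. Mir181b-2 was 1.27 ± 0.217 times Mir181a-2, and Mir181a-2 55.3 ± 5.80 times Mir181b-1. Per base of hairpin the order was the same, but Mir181d then exceeded Mir181a-1 beyond the spread (log2 ratio 0.41, SD 0.19), and Mir181b-2 no longer exceeded Mir181a-2 beyond it (0.10, SD 0.25). Since 2 libraries are too few for an exact test of such ratios to reach 0.05, none was run.

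Together the 6 genes held 1.66% of the gene reads in replicate 1 and 1.89% in replicate 2, or 1.77% ± 0.159 (n = 2). Their sum of 16618 CPM in replicate 1 was exceeded by 12 single miRNA genes, and that of 18871 CPM in replicate 2 by 8. The chromosome 8 pair held 63.2% ± 0.804 of the family's reads (n = 2), at 63.7% in replicate 1 (95% exact binomial interval 63.4 to 64.1) and 62.6% in replicate 2 (62.3 to 62.9). The chromosome 1 pair held 22.4% ± 1.5, of which Mir181b-1 made up 0.116% ± 0.00454 of the family. The chromosome 2 pair held 14.5% ± 0.700, divided into 6.42% ± 0.923 for Mir181a-2 and 8.03% ± 0.224 for Mir181b-2. The chromosome 8 pair was thus 2.83 ± 0.226 times the chromosome 1 pair and 4.37 ± 0.156 times the chromosome 2 pair, each beyond the spread. Neither 5p strand of the chromosome 8 pair is present at another annotated locus, whereas both 5p strands of each other pair are. These shares are therefore of uniquely placed reads, and the part that reads mapping to several places would add to the pairs was not tested.

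Genes of a pair lie close together and can arise from 1 primary transcript. Their ratio was taken within each library, where, as for any genes, it does not depend on how the libraries are scaled. In each pair the gene named a or c is transcribed first. Mir181a-1 outnumbered Mir181b-1 by 178.1 times in replicate 1 and 207.2 times in replicate 2 (mean log2 ratio 7.59, SD 0.15). Mir181c outnumbered Mir181d by 1.5 and 1.68 times (0.67, SD 0.12). On chromosome 2 the direction was the other way: Mir181a-2 was 0.898 times Mir181b-2 in replicate 1 and 0.704 times in replicate 2 (mean log2 ratio -0.33, SD 0.25).

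The same ratio was taken for all 97 pairs of neighbouring detected miRNA genes on 1 strand within 10 kb. Their median distance from equality was 2.78 on the log2 scale, with a range of 0.17 to 10.15. The chromosome 1 pair, at 7.59, was matched or exceeded by 8 of the 97, itself included. The chromosome 8 pair was among the more even ones, as 87 of the 97 were at least as far apart, and so was the chromosome 2 pair with 94. In 21 of the 97 pairs, those on chromosomes 1 and 2 among them, a mature strand of the RefSeq table that 1 of the genes holds was found at more than 1 annotated locus, and their median distance was 5.68. In 73 pairs, the chromosome 8 pair among them, no such strand was found, with a median of 2.55, and the other 3 pairs include a gene that holds no strand of that table. These pairs share libraries and in many cases a transcript, and no test was made.

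**Figure D3:**
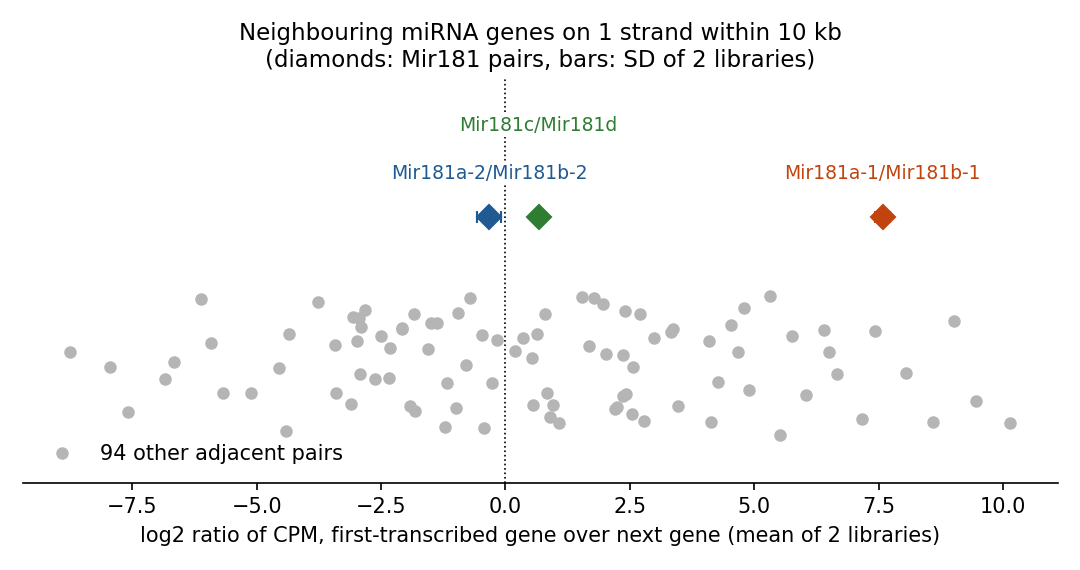
The x axis gives the log2 ratio of CPM of the first-transcribed gene over the next gene, as the mean of 2 libraries, for 97 neighbouring pairs; vertical position only separates the points. Grey dots are the 94 other pairs, and diamonds with SD bars are the Mir181 pairs, of which those on chromosomes 2 and 8 lie near 0 and the one on chromosome 1 at 7.59.

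Genes that encode the same 5p strand were compared next, by their uniquely placed reads. These ratios do not measure how much of the shared strand came from each gene. Mir181a-1 was 3.0 times Mir181a-2 in replicate 1 and 4.04 times in replicate 2, or 3.52 ± 0.741 (n = 2). Of the genes that encode miR-181b-5p, the chromosome 1 copy was low, with Mir181b-1 at 0.0151 times Mir181b-2 in replicate 1 and 0.0137 times in replicate 2. The copies therefore stood in opposite order between the chromosomes. By the sequences of the loci, a read of miR-181b-5p with 1 further U matches the Mir181b-2 hairpin at that base, and one with 1 further G the Mir181b-1 hairpin, and read lengths are not part of the count tables. A read that lies wholly within the 5p strand of a Mir181a or Mir181b gene matches both copies and is in neither count. The counts of these genes can hold 3p reads and reads that reach past the shared stretch. Those of Mir181c and Mir181d can hold reads of the 5p strand as well. How much each product made up of a count was not tested, since a count holds both strands.

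The mature strands of the RefSeq table were looked up in the M21 hairpins of the counted genes. The table does not hold every strand, and those of Mir124a-1, Mir124a-2, Mir124a-3, Mir133a-1 and Mir133a-2 were not analysed here. Of the strands it holds, 64 lie in the hairpins of 2 or more counted genes, and 22 of these had all such genes detected. The median log2 ratio of the highest to the lowest of these genes was 1.69, with a range of 0.21 to 6.16. The ratio of 1.81 for the genes that hold miR-181a-5p was matched or exceeded for 11 of the 22 strands, miR-181a-5p included. The ratio of 6.12 for the genes that hold miR-181b-5p was matched or exceeded for 3 strands, miR-181b-5p itself and both strands of Mir9-2 and Mir9-3. All these are ratios of gene counts, from which reads that lie wholly within a shared strand are left out. Of all counted genes, 329 hold a strand found at more than 1 locus, and 15.2% of them were detected, with a median of 138.7 CPM. Another 813 hold only strands found at 1 locus, of which 35.2% were detected with a median of 127.5 CPM. The remaining 831 hold no strand of the table. Among the 329 are many copies without reads: miR-680 lies at 86 counted loci, miR-3471 at 52 and miR-3470b at 43, all at 0 CPM. The share of 15.2% includes these copies, so it is no measure for families with few copies such as Mir181. A list of neural miRNA genes with several copies also spanned a wide range. Of its 11 matched genes 9 were detected, and the 11 ran between 1.52 ± 0.0885 CPM for Mir124a-3, a copy of a neuronal miRNA gene, and 5544 ± 1479 CPM for Mir219a-2, a copy of an oligodendrocyte-lineage one.

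Among all counted genes, the members spread over much of the range of levels. By mean CPM Mir181c had rank 26, Mir181d 45, Mir181a-1 50, Mir181b-2 72, Mir181a-2 81 and Mir181b-1 280. The median detected gene had 114.7 CPM, so Mir181b-1 alone of the 6 lay below it. These ranks are of uniquely placed reads. Reads that match both Mir181a-1 and Mir181a-2, or both Mir181b-1 and Mir181b-2, are left out of them. The mature strands of Mir181c and Mir181d were found at no other annotated locus. How far the reads left out would move the ranks was not tested. The gene next above Mir181c was Mir149 at 7046 ± 408.3 CPM, and next below was Mir30a at 6424 ± 418.5 CPM. Mir181c exceeded Mir30a beyond the spread of their ratio but did not differ from Mir149 beyond it. The neighbours of Mir181d were Mir21a and Mir431, those of Mir181a-1 Mir92-1 and Mir298, those of Mir181b-2 Mir16-1 and Mirlet7b, those of Mir181a-2 Mir598 and Mir203, and those of Mir181b-1 Mir452 and Mir26a-2. None of these 10 differed from its member beyond the spread. Neighbours were picked by nearness in mean CPM over the same libraries, so small ratios follow from the choice. With 1 tissue, nearness in level over 2 libraries was the only measure of likeness available.

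**Figure D4:**
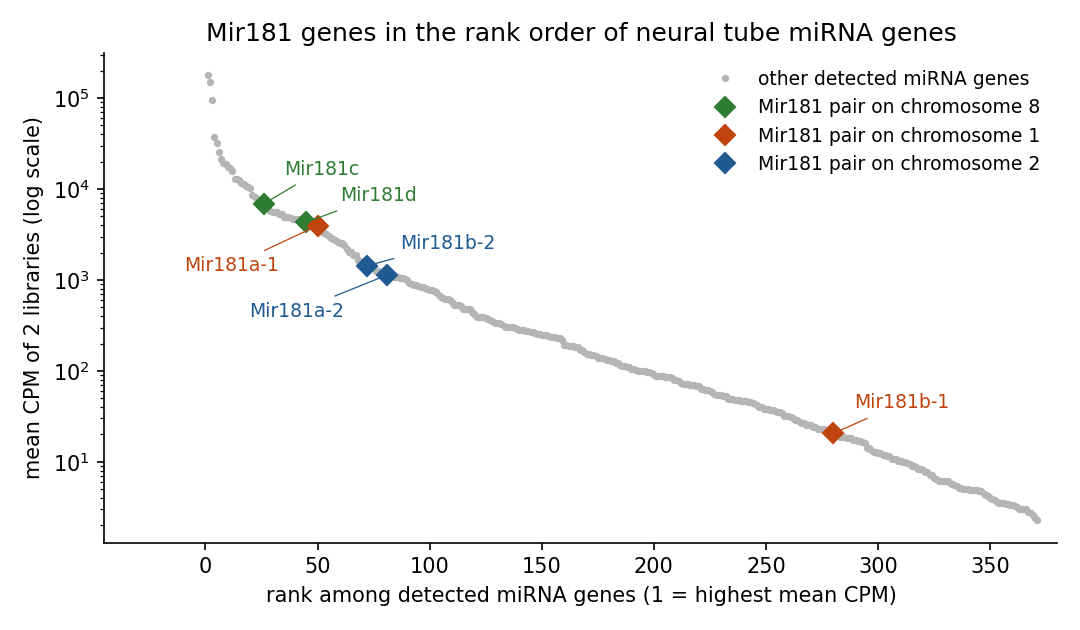
Mean CPM of the 371 detected miRNA genes on a log axis against their rank, with the Mir181 genes as diamonds coloured by chromosome. Of the 6 members, 5 lie within the first 81 ranks, and Mir181b-1 at rank 280.

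Markers of the labelled tissue and of cells it could hold were measured in the same libraries. Of 9 matched neural genes 7 were detected, with a summed 4043 CPM in replicate 1 and 4455 in replicate 2. Mir137 had a mean of 2809 CPM and Mir153 807.1, and the others are copies of Mir9, Mir124a and Mir128. Reads of such copies that were placed at several loci are left out, so the sum does not show how much neural miRNA was present. The lymphoid and myeloid genes, of interest because lymphocytes are rich in miR-181, were detected in 4 of 4 matched cases and summed to 397.7 and 326.5 CPM. The erythroid genes (3 of 3) summed to 111.8 and 101.7 CPM. The endothelial gene Mir126a had 20304 and 18258 CPM, and of the 4 matched genes of the muscle list Mir206 was detected. Mir133a-1 and Mir133a-2 of that list stood at 0, in counts that leave out any read placed at several loci, so this does not show that their miRNA is absent. Muscle miRNA genes outside the list were detected too, such as Mir208b with 37.9 CPM and Mir133b with 11.7 CPM. The part of these cell types in the Mir181 levels was not tested.

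Between the libraries all 6 members lay within 2-fold, with log2 ratios of replicate 1 to replicate 2 of -0.36 to 0.07. Each gene was tested between them with a two-sided exact binomial test on TMM-scaled totals, adjusted by Benjamini-Hochberg over the 371 detected genes. Of the 6 members 0 were at least 2-fold apart with an adjusted p under 0.05, against 2.70% of all detected genes. Without a fold minimum 5 of 6 passed, 4 lower and 1 higher in replicate 1, against 53.1% of all detected genes, 27.0% lower and 26.1% higher. This test covers counting error alone, so at these depths it calls small differences, and it compares the pools and not conditions.

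Mir181a-1 stood furthest apart, with a log2 ratio of replicate 1 to replicate 2 of -0.36 (adjusted p = 3.99e-124 in the exact binomial test), and 28% of the detected genes were at least as far apart. Mir181b-2 had -0.28 (adjusted p = 1.04e-27) and Mir181c -0.26 (adjusted p = 7.35e-112), also by the exact test. Mir181d followed with -0.10 (9.94e-11, exact). Mir181a-2 was the 1 member higher in replicate 1, at 0.07 (exact adjusted p = 0.0232). Mir181b-1 had -0.14 and did not pass (exact adjusted p = 0.630). The median absolute log2 ratio of the members was 0.20, against 0.24 over all detected genes, and the common coefficient of variation of the libraries was 16.4%, equal to an SD of 0.33 in the log2 ratio of 1 gene. On TMM-scaled totals Mir181a-1 alone lay beyond that SD, and its partner in sequence, Mir181a-2, lay on the other side of 0. Mir181a-1 lay within that SD on own-strand totals, and also when each library had to hold 100 reads of a gene (-0.32 in both).

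**Figure D5:**
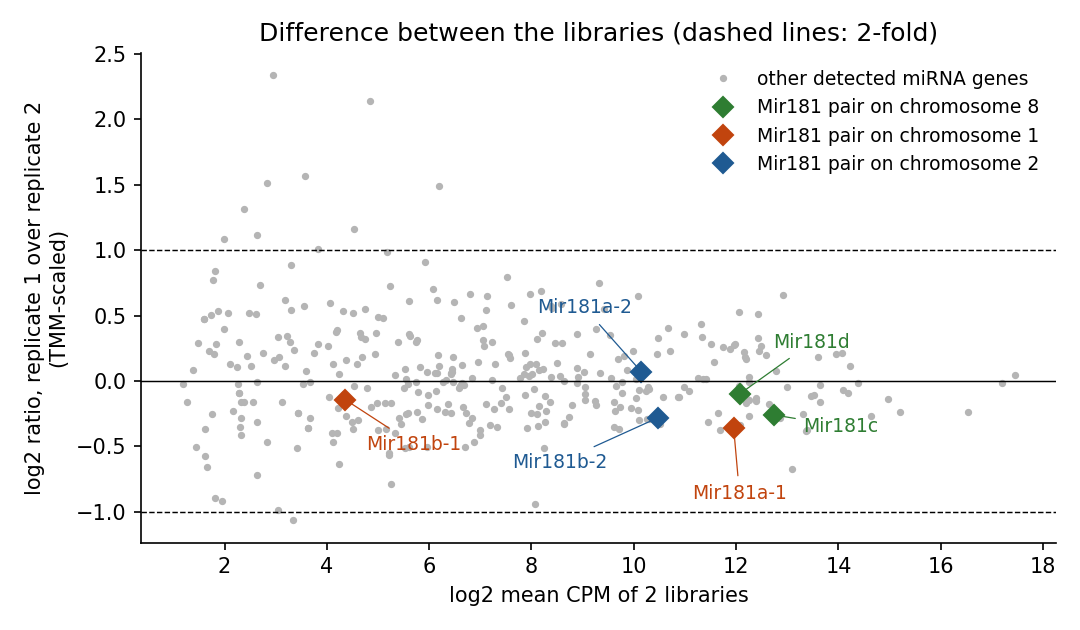
The log2 ratio of replicate 1 over replicate 2 on TMM-scaled totals is plotted against the log2 mean CPM of the 371 detected genes, with dashed lines at 2-fold. The Mir181 genes, shown as diamonds, lie between -0.36 and 0.07, and none reaches a dashed line.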

How the data were processed

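The values deposited by the authors are raw read counts of miRNA genes, 1 table a library, with a column for the sum of strands and 1 for each strand. They were made on mm10 with annotation M4, per the descriptions in the deposit. Aligner, mismatches allowed and trimming were not given in the sources used here. Of the reads in the file of replicate 1 and of replicate 2, 27.3% and 20.0% were unmapped, 27.0% and 28.6% mapped to several places, 8.04% and 4.45% lay on no feature, and 0 were ambiguous. These rows were left out of totals and tests. Own-strand counts were divided by their library total (CPM). The limit that a count of 0 sets is 0.625 CPM for replicate 1 and 0.678 CPM for replicate 2 (3 counts). Floors, 95% exact binomial intervals and the exact binomial test cover counting error only, since PCR reads are not independent molecules. Errors are SDs of 2 libraries, and a ratio is called beyond the spread when its mean log2 value exceeds its SD and has 1 sign in both.

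Symbols, coordinates and hairpins were from GENCODE M21 (same assembly, later release), in which 1894 of 1973 identifiers matched, and printed sequences from RefSeq (GRCm38.p6), in which all 6 members had mature strands and 5 a hairpin, Mir181c having none. There being 1 group, no quasi-likelihood test was run in edgeR. TMM and the common coefficient of variation used edgeR 4.0.16 and DESeq2 1.42.0 gave alternative size factors (R 4.3.3). Other steps used Python 3.11.15, numpy 2.4.6, pandas 2.3.3, scipy 1.17.1 and matplotlib 3.10.9. The exact binomial test was tested on simulated counts with set fold differences and counting error only, so variation between libraries was not covered. The genes named are the members, their neighbours in level, genes that share a seed, and the neural and marker lists. The comparisons with adjacent pairs and shared strands name further genes chosen after their values were seen. The members and lists were chosen with earlier results of these data known.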

Additional observations from a re-analysis of the deposited data

How the results depend on the processing

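Counting reads that map to several places in the denominator lowered the family share of gene reads to 1.07%, and leaving Mir10a and Mir10b out of it raised the share to 2.64%. None of the reads mapping to several places was added to the family itself, so 1.07% is a lower limit with that denominator. The larger denominator lowers all levels of a library by 1 factor and cannot change the order of the members within that library. It differs between the libraries, and the order of the means was unchanged as well. It gave 4148 CPM for Mir181c, 2602 for Mir181d, 2393 for Mir181a-1, 860.9 for Mir181b-2, 680.2 for Mir181a-2 and 12.4 for Mir181b-1. Scaling by TMM or DESeq2 size factors and the both-strand column moved no level by more than its SD. Per base of annotated hairpin, a setting added once the values were known, the log2 ratio of Mir181c to Mir181d was 0.36 in place of 0.67. When each library had to hold 100 reads of a gene, 5 members in place of 6 passed, without Mir181b-1, and 2 of all genes in place of 10 were at least 2-fold apart. Filtering instead on 1 read in either library, Mir181a-2 no longer passed the exact binomial test between libraries (log2 ratio 0.04, adjusted p = 0.314). Of 118 alternative values 107 kept their side or stayed within the spread. That count is no measure of robustness, since it includes values that could not move. These are the values that leave out a library, and the both-strand pair shares and ratios, as the members had no opposite-strand reads. Windows of 18 or 22 bases gave shares of distinct windows of 81.4% to 92.6% in the genes on chromosomes 1 and 2. In Mir181c and Mir181d the share stayed at 100%. These shares were counted as unmoved by a 95% binomial interval, which does not strictly apply to overlapping windows of a fixed sequence. Leaving out either library left every level, share and ratio within the SD, as it must with 2 libraries. No paired analysis was possible because there is 1 group. Depth limits Mir181b-1 most, with 95 reads in replicate 1 and 94 in replicate 2.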
